A study of Homo sapiens with 12 samples.

Results

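The clustered protocadherins are 53 protein-coding genes that lie side by side on the long arm of human chromosome 5. They were taken from a table of 54261 genes as every gene whose symbol begins with PCDHA, PCDHB or PCDHG followed by a number, or with PCDHAC, PCDHGA, PCDHGB or PCDHGC followed by a number. PCDHA14 matches that pattern but is listed as a pseudogene and was left out. The members are 13 alpha genes, 2 C-type genes at the end of the alpha cluster (PCDHAC1 and PCDHAC2), 16 beta genes, 12 gamma A genes, 7 gamma B genes and 3 gamma C-type genes. In GRCh38 they extend from the start of PCDHA1 to the end of the gamma cluster, chr5:140786140-141512975, a distance of 726.8 kb.

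Clustered protocadherins are single-pass membrane proteins of the cadherin superfamily, best known from neurons, where each cell uses a few of them in combination and the same combination on another membrane is bound and recognised as self. In the alpha and gamma clusters each gene has a first exon of its own, which encodes the extracellular cadherin repeats, the membrane span and part of the tail, and this exon is spliced to constant exons that all genes of the cluster share. Beta genes consist of a single coding exon and share no constant exon. Each variable exon has its own promoter. Promoter choice is known to depend on the DNA-binding protein CTCF, on cohesin and on DNA methylation, and silencing of these clusters by methylation is a known event in colorectal tumours.

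The compared cells were HCT116, a cell line from a human colorectal carcinoma, and HCT116oxR, obtained by growing HCT116 in oxaliplatin, a platinum drug that binds DNA. Total RNA was sequenced. The drug was raised from 0.1 µmol/L through 0.5, 1.0 and 2 µmol/L to 5 µmol/L, which was kept for 1 year. Parental and HCT116oxR cells were each represented by 3 libraries from cultures that were grown and harvested separately. As 1 resistant line and 1 parent were studied, p-values here refer to variation among cultures of these lines, with no second selection to compare. The drug, the time in culture and the choice of surviving cells cannot be told apart.

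Library totals lay between 11950069 and 13558077 counts. Across tested genes, which are not independent replicates, Pearson's r of log2(CPM + 1) was 0.993 to 0.994 within a line and 0.969 to 0.970 between the lines, where CPM is the count scaled to a library total of 1000000. The epithelial keratin genes KRT8 and KRT18 and the adhesion genes EPCAM and CDH1 were expressed in both lines, whereas CDX1 (0 and 2 counts in all parental and all HCT116oxR libraries), VIL1 (2 and 2) and LGALS4 (8 and 22) were near 0. Of all 17511 genes with enough counts for a test, 44.1% were called different between the lines (22.3% higher and 21.8% lower in HCT116oxR), at an adjusted p below 0.05 in edgeR's quasi-likelihood F test. The share of these genes in which the 3 libraries of each line did not overlap was 50.5%. Counts of genes called, for the protocadherins and for every other list, are to be read against these shares.

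The promoters show how similar the members are where transcription starts. RefSeq promoter sequences of GRCh38.p14, from 250 bases before to 50 bases after 1 annotated start per gene, were at hand for 47 of the 53 members. The letters CGCT, the core of an element that most of these promoters are known to share, occurred on either strand in 46 of the 47 (97.9%) and in 69.3% of all 27305 promoters in the table. PCDHA9 was the member without it. These are matches to 4 letters and not to the whole element, which PCDHAC2 and PCDHB1 are known to lack. The first CGCT on the plus strand lay at a median of -61.5 bases from the start, and at -158 in PCDHAC2. The stretches of 40 bases around it are given for members to which the results below return, in the direction of the plus strand, which is the coding strand of every member, with CGCT in capitals.
PCDHA1, chr5:140786084-140786123: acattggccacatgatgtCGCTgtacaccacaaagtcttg
PCDHAC1, chr5:140926218-140926257: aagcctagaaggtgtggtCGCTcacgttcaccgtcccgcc
PCDHAC2, chr5:140966300-140966339: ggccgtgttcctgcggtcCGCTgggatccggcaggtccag
PCDHB8, chr5:141177775-141177814: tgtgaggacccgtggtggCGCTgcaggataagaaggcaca
PCDHB13, chr5:141213863-141213902: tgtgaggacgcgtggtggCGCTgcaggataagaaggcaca
PCDHB14, chr5:141223261-141223300: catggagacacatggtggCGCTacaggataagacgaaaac
PCDHGA6, chr5:141373833-141373872: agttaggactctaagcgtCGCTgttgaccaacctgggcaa
PCDHGA7, chr5:141382647-141382686: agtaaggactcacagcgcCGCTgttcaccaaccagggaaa
PCDHGA9, chr5:141402712-141402751: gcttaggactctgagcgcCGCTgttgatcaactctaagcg
PCDHGA10, chr5:141412929-141412968: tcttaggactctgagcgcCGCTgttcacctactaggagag

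The bases next to CGCT differed by cluster. GATGTCGCT was found in 9 of 11 alpha promoters and in no other member, against 0.103% of all promoters. GGTGGCGCT was found in 13 of 14 beta promoters (PCDHB1 was the exception) and in no other member, against 0.524% of all. GCGNCGCTG was found in 8 of 11 gamma A and 5 of 7 gamma B promoters, against 3.57% of all. These longer strings were chosen after the promoters had been read, and both strands were searched. The C-type promoters of PCDHAC1 and PCDHAC2 held none of them. The stretches of PCDHB8 and PCDHB13 were the same in 39 of 40 bases and differed by C10G, counted from the 5′ end of the stretch with the base of PCDHB8 first.

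The C-type promoters also differed from the others in base composition. The median number of CG dinucleotides per 300 bases was 21.0 in the 2 alpha C-type promoters (27 in PCDHAC1 and 15 in PCDHAC2) and 20.5 in the gamma C-type promoters. It was 7.0 in alpha, 7.5 in beta, 5.0 in gamma A and 11 in gamma B promoters, and 13 over all promoters of the table. The string AGNNGGC, part of the CTCF motif, occurred on either strand in 34.0% of member promoters and in 63.9% of all promoters. Among members it was found in 9.1% of alpha, 57.1% of beta and 2 of 2 gamma C-type promoters. The median GC content was 39.7% in member promoters and 58.3% over all, so the 2 shares of this GC-rich string are not directly comparable. These are counts of letters and say nothing of methylation or binding in either line, which were not measured.

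**Figure D1:**
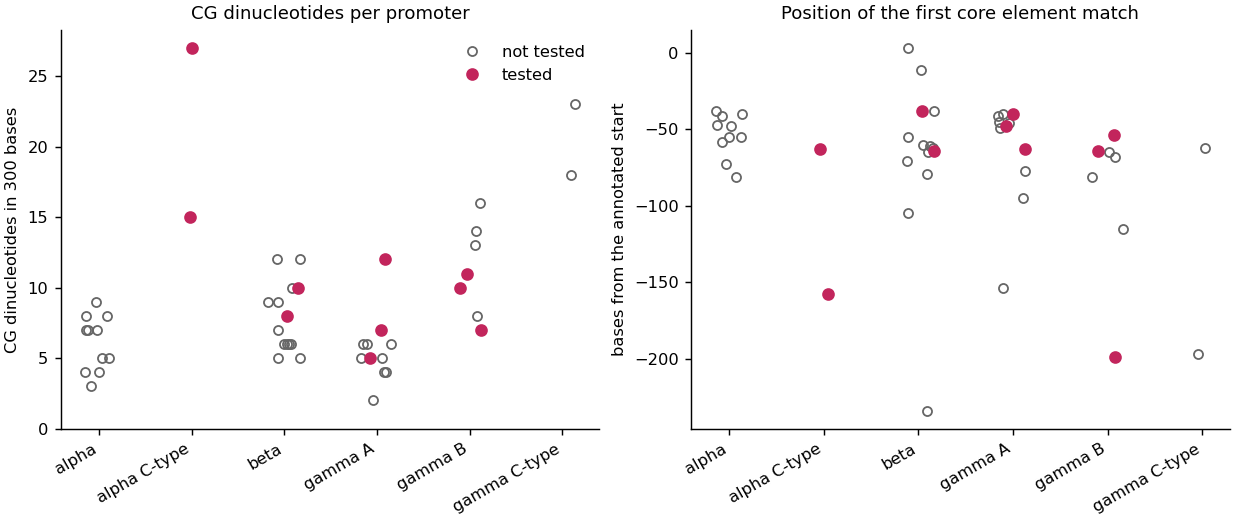
Left, CG dinucleotides in the 300-base promoter of each of 47 members by subcluster. Right, position of the first CGCT on the plus strand in bases from the annotated start, for the 46 promoters that hold it. Each point is 1 gene, filled where the gene passed the filter on low counts; the C-type promoters hold 15 to 27 CG dinucleotides and the alpha promoters 3 to 9.

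Few members had enough counts in their entries for a test. Of the 53 genes, 10 passed the filter on low counts, 34 others had at least 1 count and 9 had none in any library (PCDHA3, PCDHA10, PCDHA11, PCDHB1, PCDHB6, PCDHGA12, PCDHGC3, PCDHGC4 and PCDHGC5). In a single library a gene without a count could still have a level of up to 0.251 CPM, the equivalent of 3 counts in the smallest library. For a gene without a count in any library, the bound over the libraries together is lower. These bounds cover sampling alone. They do not cover reads of a gene that were dropped or assigned to an overlapping entry, which cannot be seen here. Near the cluster, for example, IK held 9 counts and MIR3655, which lies inside IK, held 612. Of the 10 tested members 4 were higher in HCT116oxR (PCDHAC1, PCDHAC2, PCDHB13 and PCDHB14), 1 was lower (PCDHGA9) and 5 were not called. PCDHB13 reached the minimum of 0.777 CPM in no parental library, and PCDHAC1 and PCDHB14 reached it in 1 parental library and all 3 HCT116oxR libraries. Those 3 genes entered the test through the line in which they were high, so the share of tested members called supports nothing by itself. Among 7660 tested genes in the members' range of abundance, 29.6% were called.

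**Figure D2:**
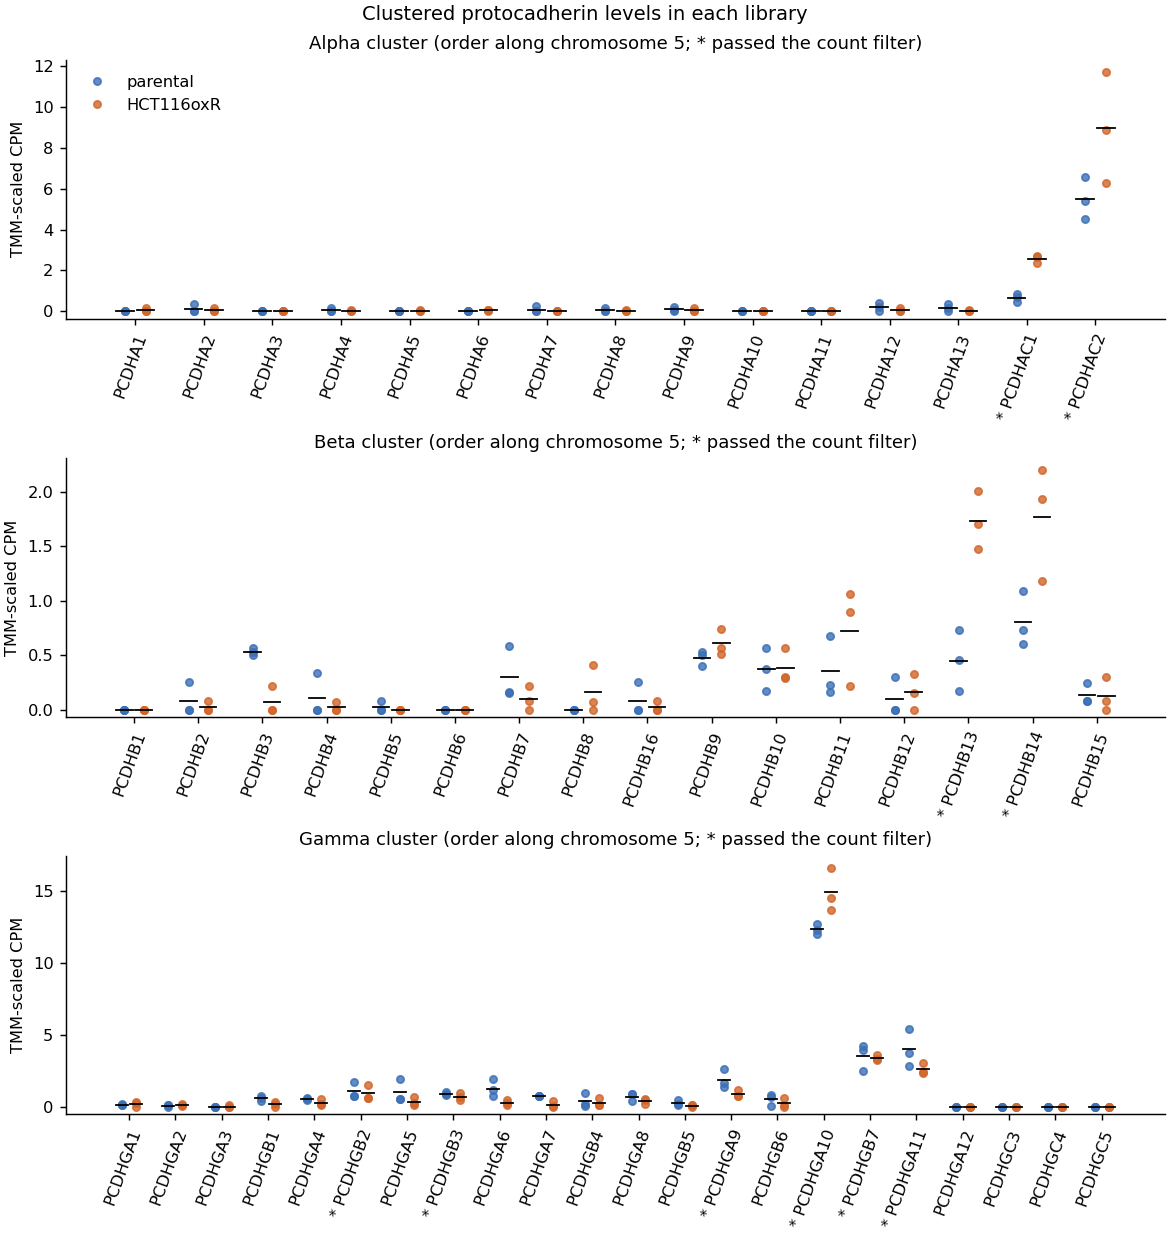
TMM-scaled CPM of all 53 clustered protocadherins in the order of the chromosome, 1 panel per cluster with its own linear axis, with 1 point per library (3 parental, 3 HCT116oxR) and a dash for the mean of each line. Asterisks mark the 10 members that passed the filter; PCDHAC1, PCDHB13 and PCDHB14 have all HCT116oxR points above all parental ones, and most other members lie near 0 in both lines.

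The entries of the 13 alpha genes held almost no counts. Their entries held 31 counts in all in the parental libraries (18, 0 and 13) and 14 in the HCT116oxR libraries (3, 8 and 3). The largest total for a single gene was that of PCDHA12, with 3, 0 and 5 counts in parental cells and 0, 0 and 2 in HCT116oxR. Counts of PCDHA13 were 5, 0 and 2 against 0, 1 and 0. Counts of PCDHA9 were 3, 0 and 1 against 0, 2 and 0. Counts of PCDHA2 were 5, 0 and 0 against 0, 2 and 0. PCDHA1, PCDHA4, PCDHA5, PCDHA6, PCDHA7 and PCDHA8 had 1 to 3 counts each. None of the 13 could be tested, and a difference between the lines was not detectable at this depth.

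PCDHAC1 and PCDHAC2, whose variable exons lie closest to the alpha constant exons, were the tested members of the alpha cluster. Both were higher in HCT116oxR. PCDHAC1 had 6, 10 and 9 counts in the parental libraries and 36, 32 and 33 in HCT116oxR. Every HCT116oxR library was thus above every parental one, and the level rose from 0.674 ± 0.200 to 2.58 ± 0.165 CPM (SD, n = 3 per line). In edgeR the log2 fold change was 1.93 ± 0.42 (SE), a 3.81-fold rise, with an adjusted p of 5.1e-05.

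PCDHAC2 had 60, 64 and 81 counts in parental cells and 85, 119 and 144 in HCT116oxR. The groups overlapped, because HCT116oxR replicate 1 (6.27 CPM) was below parental replicate 3 (6.56 CPM). The level rose from 5.49 ± 1.02 to 8.96 ± 2.73 CPM (SD, n = 3 per line), a log2 fold change of 0.70 ± 0.19 with an edgeR adjusted p of 0.00129. Without HCT116oxR replicate 3, its highest library, the log2 fold change was 0.47 and the edgeR adjusted p 0.0805.

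A further entry of the count table, PCDHACT, is listed for the alpha constant region. It is not a member, but it bears on them because alpha transcripts are spliced to these exons. Its counts were 126, 97 and 95 in parental cells and 197, 275 and 222 in HCT116oxR, with no overlap between the lines. The level rose from 8.45 ± 0.944 to 17.7 ± 3.01 CPM (SD, n = 3 per line), with a log2 fold change of 1.06 ± 0.14 and an edgeR adjusted p of 1.25e-10. The summed level of PCDHAC1 and PCDHAC2 was 4.98, 6.22 and 7.28 CPM in parental cells and 8.92, 11.3 and 14.4 CPM in HCT116oxR, a ratio of 1.87, of which PCDHAC2 held 81.4% of the counts. The C-type sum and the constant region were thus both higher in every HCT116oxR library than in any parental one, while the entries of the 13 alpha genes were near 0 in both lines. As the assignment of reads from shared exons is not known, these are counts per entry and not per exon.

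The beta genes were low throughout, and 2 of 16 passed the filter. PCDHB13 had 6, 2 and 9 counts in the parental libraries and 20, 27 and 21 in HCT116oxR. All HCT116oxR libraries were above all parental ones. Its level rose from 0.450 ± 0.280 to 1.73 ± 0.270 CPM (SD, n = 3 per line), with a log2 fold change of 1.91 ± 0.50, which is 3.77-fold, and an edgeR adjusted p of 8.36e-04.

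PCDHB14, the next gene downstream, had 8, 13 and 9 counts in parental cells and 16, 26 and 27 in HCT116oxR. The lines did not overlap, although HCT116oxR replicate 1 was close to parental replicate 2. The level went from 0.808 ± 0.254 to 1.77 ± 0.530 CPM (SD, n = 3 per line), a log2 fold change of 1.13 ± 0.44 with an edgeR adjusted p of 0.0302. This call was lost with DESeq2 (adjusted p 0.0533), without the filter on low counts (edgeR adjusted p 0.0532) and without each of parental replicates 1 and 3 and HCT116oxR replicates 2 and 3 (edgeR adjusted p 0.0823 to 0.148).

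The other 14 beta genes held 96 counts in the parental and 94 in the HCT116oxR libraries. The summed beta level was 3.84 ± 0.711 CPM in parental and 5.93 ± 1.49 CPM in HCT116oxR cells (SD, n = 3 per line). These sums overlapped, as parental replicate 2 (4.63 CPM) was above HCT116oxR replicate 1 (4.28 CPM). PCDHB13 and PCDHB14 passed the filter through HCT116oxR, so their split from the other 14 supports nothing by itself. PCDHB3 was lower in HCT116oxR. It had 7, 6 and 7 counts in parental cells against 3, 0 and 0, and the lines did not overlap. Its ratio of parental to HCT116oxR counts, scaled to library totals, was 6.94 with a 95% counting interval of 2.06 to 36.4. It had too few counts for the filter, and it was not called without the filter (edgeR adjusted p 0.0614). PCDHB11 had 3, 8 and 2 counts against 3, 12 and 13, PCDHB9 had 7, 6 and 5 against 7, 10 and 7, and PCDHB10 had 5, 2 and 7 against 4, 4 and 7. All 3 overlapped between the lines. PCDHB8, whose stretch around CGCT differs from that of PCDHB13 in 1 base, had 0, 0 and 0 counts against 1, 0 and 5.

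Since each beta gene is a single exon, its level can be set against its length. Per kb of annotated gene, PCDHB14 was highest in HCT116oxR, at 0.401 ± 0.120 CPM, followed by PCDHB13 at 0.343 ± 0.0534 and PCDHB11 at 0.175 ± 0.107 (SD, n = 3). PCDHB14 and PCDHB13 did not differ beyond their spread, whereas every library of PCDHB13 was above every library of PCDHB11. In parental cells the order was PCDHB14 at 0.183 ± 0.0576, PCDHB3 at 0.159 ± 0.00932, PCDHB10 at 0.112 ± 0.0605 and PCDHB9 at 0.109 ± 0.015 (SD, n = 3). PCDHB14 and PCDHB3 overlapped there, as did PCDHB10 with each of the other 3 genes, whereas every library of PCDHB14 and of PCDHB3 was above every library of PCDHB9. PCDHB13 stood at 0.0889 ± 0.0554 there, a lower mean than those of these genes. Its parental libraries overlapped with those of PCDHB14, PCDHB10 and PCDHB9 and were all below those of PCDHB3. In HCT116oxR, PCDHB3 was at 0.022 ± 0.0381. PCDHB2, PCDHB4, PCDHB5, PCDHB12, PCDHB15 and PCDHB16 had 0 to 6 counts per line and PCDHB7 had 11 and 4, so no order can be read among them.

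**Figure D3:**
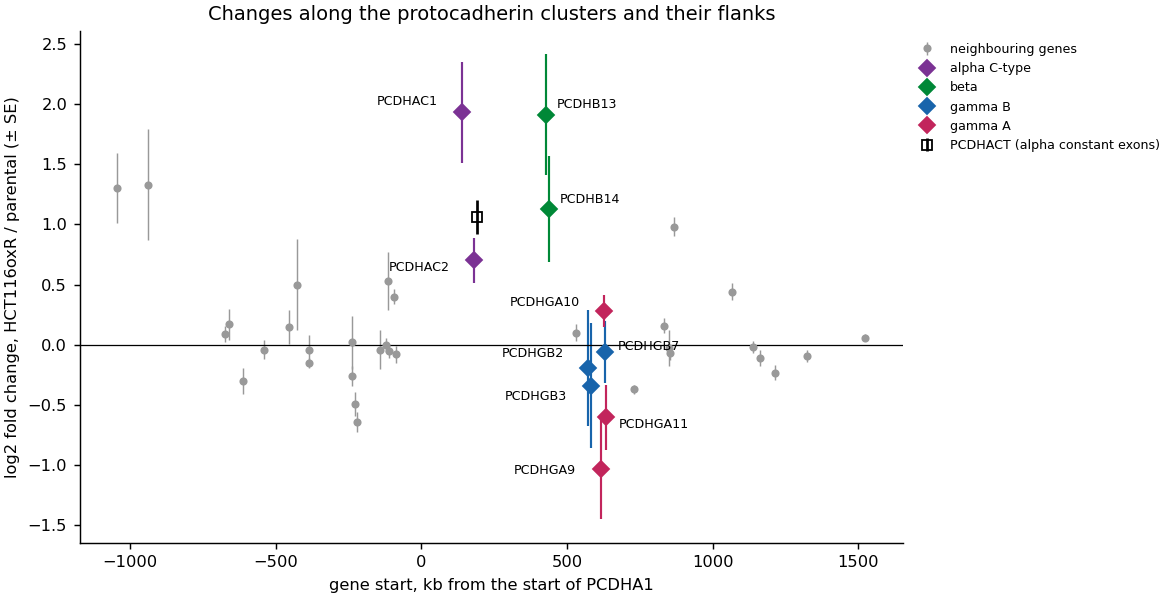
Log2 fold change (HCT116oxR over parental, bars ± SE) of the 10 tested members, of PCDHACT and of the tested neighbouring genes against the distance of the gene start from that of PCDHA1 in kb. The tested alpha C-type and beta members and PCDHACT lie above 0, and the gamma members lie on both sides of it, PCDHGA9 lowest at -1.03.

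The gamma cluster held most of the counts of the 53 members in both lines. That total leaves out PCDHACT, the entry of the alpha constant region with 1012 counts, and the gamma constant exons have no such entry. The clusters are therefore not counted alike. PCDHGA10 alone held 31.9% of the counts of all 53 members, with 163, 151 and 148 counts in parental and 197, 184 and 204 in HCT116oxR libraries. Every HCT116oxR library was above every parental library, at 15 ± 1.49 against 12.3 ± 0.361 CPM (SD, n = 3 per line), but the log2 fold change of 0.28 ± 0.13 (95% interval 0.02 to 0.54) was not called after adjustment (edgeR adjusted p 0.0826).

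PCDHGA9 was the gamma member called lower. It had 35, 17 and 21 counts in the parental libraries and 11, 16 and 10 in HCT116oxR. The lines did not overlap, although parental replicate 2 and HCT116oxR replicate 2 were 1 count apart, and the level fell from 1.92 ± 0.636 to 0.940 ± 0.220 CPM (SD, n = 3 per line). The log2 fold change was -1.03 ± 0.42, a level 2.04-fold lower, with an edgeR adjusted p of 0.0366. The call was lost with DESeq2 (adjusted p 0.0603), without the filter on low counts (edgeR adjusted p 0.0616) and without parental replicate 1, HCT116oxR replicate 1 or HCT116oxR replicate 3 (edgeR adjusted p 0.111 to 0.262).

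PCDHGA11 had 50, 34 and 67 counts in parental cells and 42, 32 and 30 in HCT116oxR, which overlapped. Its log2 fold change of -0.60 ± 0.27 was not called (edgeR adjusted p 0.0618). It was called without parental replicate 2, at -0.79 with an edgeR adjusted p of 0.0198. PCDHGB7 had 56, 47 and 31 counts against 49, 44 and 41. Its log2 fold change was -0.06 ± 0.26, with a 95% interval of -0.58 to 0.45 and an edgeR adjusted p of 0.872, so a change of less than about that size in either direction could not be told from none. PCDHGB2 had 10, 21 and 10 counts against 21, 9 and 8 (log2 fold change -0.19 ± 0.48, edgeR adjusted p 0.788), and PCDHGB3 had 11, 11 and 13 against 13, 7 and 9 (-0.34 ± 0.52, edgeR adjusted p 0.639). Both overlapped between the lines.

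Among the gamma members under the filter, PCDHGA6 and PCDHGA7 had the largest ratios of parental over HCT116oxR counts. PCDHGA6 had 10, 23 and 15 counts in parental cells and 7, 4 and 2 in HCT116oxR, a ratio of parental to HCT116oxR of 3.84 (95% counting interval 2.05 to 7.73). PCDHGA7 had 10, 9 and 10 counts against 6, 1 and 0, a ratio of 4.31 (1.85 to 11.7). The lines did not overlap for either gene. When genes were tested without the filter, both were called lower, PCDHGA6 with a log2 fold change of -1.94 (edgeR adjusted p 0.00783) and PCDHGA7 with -2.08 (edgeR adjusted p 0.0482). That fit tested 31213 genes and called 24.5% of them. Of the 44 members with a count it called 11.4%, 3 of them higher and these 2 lower.

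PCDHGB1 had 6, 9 and 8 counts in parental cells and 0, 5 and 3 in HCT116oxR, without overlap (ratio 2.99, 1.29 to 7.73), and was not called without the filter (edgeR adjusted p 0.209). PCDHGA5 had 8, 7 and 24 counts against 2, 4 and 9, with overlap, and was not called either (edgeR adjusted p 0.094). PCDHGB5 had 2, 6 and 3 counts against 2, 2 and 0, PCDHGA8 had 12, 5 and 11 against 8, 7 and 3, and PCDHGA4 had 8, 8 and 6 against 3, 8 and 2. PCDHGB4 (1, 12 and 3 against 2, 2 and 8) and PCDHGB6 (11, 1 and 9 against 2, 9 and 0) varied as much within a line as between the lines. PCDHGA1, PCDHGA2 and PCDHGA3 had 7, 4 and 0 counts in parental cells and 9, 6 and 2 in HCT116oxR. Of the 44 members with any count, 10 (22.7%) did not overlap between the lines, 4 of them above and 6 below in HCT116oxR, against 33.1% of all genes with a count. The 6 include PCDHGB5, in which the lines were tied at 2 counts and were separated only by scaling (0.151 CPM in parental replicate 1 against 0.149 CPM in HCT116oxR replicate 2).

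Summed by subcluster, the levels moved in different directions and no test was made of these sums. Gamma A genes summed to 23.0 ± 1.58 CPM in parental and 20.6 ± 0.830 CPM in HCT116oxR cells (SD, n = 3 per line). The lowest parental library (21.7 CPM) was just above the highest HCT116oxR library (21.4 CPM). Of this, the 9 gamma A genes under the filter went from 3.85, 4.71 and 5.67 CPM to 2.29, 2.46 and 1.55 CPM, a ratio of 0.443. Gamma B genes summed to 7.52 ± 1.39 and 6.00 ± 0.497 CPM, with overlap between the lines. The 4 gamma B genes under the filter had 71 counts in parental and 35 in HCT116oxR libraries. All 53 members together held 1548 counts in parental and 1739 in HCT116oxR libraries, or 41.3 ± 1.77 and 44.5 ± 4.12 CPM, a ratio of 1.08 with overlap between the lines.

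**Figure D4:**
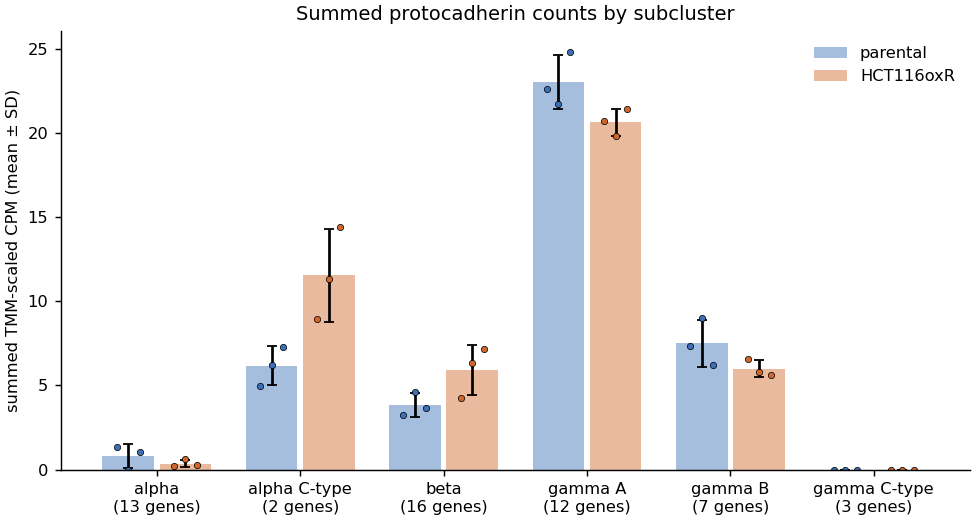
Summed TMM-scaled CPM of the members of each subcluster, with bars for the mean of 3 libraries per line, error bars for the SD and points for single libraries. The alpha C-type sum is higher in every HCT116oxR library than in any parental one, beta and gamma B points overlap between the lines, and gamma C-type genes are at 0.

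How reads from shared exons were assigned limits these values. The count table has an entry for the alpha constant region but none for the gamma constant exons, and the entries named PCDHA, PCDHB and PCDHG for whole clusters held 23, 4 and 21 counts in the parental and 9, 6 and 13 in the HCT116oxR libraries. Which entry received reads from the gamma constant exons is not given in the sources used here. The counts of PCDHGA10 and of the other gamma genes may therefore include reads that belong to other gamma transcripts. The shares of counts given above for PCDHGA10 and for the gamma cluster are thus shares per entry and do not rank transcript levels. Beta pseudogenes and the gamma pseudogenes PCDHGB8P (86 and 63 counts, log2 fold change -0.51 ± 0.36, edgeR adjusted p 0.255) and PCDHGB9P (53 and 67 counts, 0.27 ± 0.39, edgeR adjusted p 0.617) are close copies of members and may share reads with them. In bulk RNA, fewer cells that express a gene and less RNA per cell cannot be told apart.

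The genes around the cluster did not move in 1 direction. Of 37 protein-coding genes that lie inside it or within 1 Mb of its ends, 32 were tested. Of these, 6 were higher, 7 were lower and 19 were not called, with a median log2 fold change of -0.02. Over all tested genes, 22.3% were higher and 21.8% lower. TAF7, a transcription factor gene that lies between the beta and gamma clusters, was at 50.8 ± 2.33 and 54.5 ± 2.76 CPM (SD, n = 3 per line; log2 fold change 0.10 ± 0.07, edgeR adjusted p 0.253). SLC25A2, also inside, had 23 and 20 counts. The neighbours that rose most were NRG2, a neuregulin (log2 fold change ± SE 1.33 ± 0.46, edgeR adjusted p 0.0113), PSD2 (1.30 ± 0.29, 7.7e-05) and ARAP3, a regulator of small GTPases (0.98 ± 0.08, 2.97e-21). The NRG2 call was lost without HCT116oxR replicate 2. Those that fell most were SLC35A4 (-0.64 ± 0.08, 3.08e-11), APBB3 (-0.49 ± 0.10, 7.9e-06) and the formin gene DIAPH1, which adjoins the gamma cluster (-0.37 ± 0.04, 7.05e-17).

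Most cadherin-family genes outside the cluster had too few counts for a test. Of 12 non-clustered protocadherins 3 were tested, 2 were higher and none was lower, and 5 had no count (PCDH8, PCDH9, PCDH11X, PCDH15 and PCDH20). Over all tested genes, 22.3% were higher and 21.8% lower, which also applies to the other cadherins below. PCDH7 was at 98.5 ± 6.86 CPM in parental and 375 ± 3.53 CPM in HCT116oxR cells (SD, n = 3 per line; log2 fold change 1.93 ± 0.04, edgeR adjusted p 6.77e-77). PCDH1 rose from 47.3 ± 3.05 to 64.0 ± 1.75 CPM (0.44 ± 0.07, edgeR adjusted p 2.72e-08), and PCDH19 was not called (-0.36 ± 0.22, edgeR adjusted p 0.181). Of 21 other cadherins 6 were tested and 2 were higher, CDH22 with 4 and 152 counts (5.05 ± 0.53, edgeR adjusted p 3.68e-15) and CDH26 with 18 and 67 counts (1.81 ± 0.50, edgeR adjusted p 0.00171). Parental libraries were at 0.0755, 0.168 and 0.0809 CPM for CDH22 and 0.226, 0.42 and 0.809 CPM for CDH26. The filter's minimum was 0.777 CPM. Both genes thus entered the test through HCT116oxR, so the share called supports nothing by itself. E-cadherin (CDH1) was not called, at 0.08 ± 0.06 (edgeR adjusted p 0.304).

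Genes for the proteins known to act on these promoters were measured in both lines. Of 14 CTCF and cohesin genes 13 were tested, 1 was higher and 3 were lower, against 22.3% and 21.8% of all tested genes. CTCF was at 122 ± 6.17 and 122 ± 0.730 CPM (SD, n = 3 per line; log2 fold change 0.01 ± 0.05, edgeR adjusted p 0.947). RAD21, the cleavable subunit of cohesin, rose from 347 ± 8.32 to 669 ± 23.7 CPM (0.95 ± 0.03, edgeR adjusted p 6.93e-55). The cohesin loader subunit MAU2 (-0.34 ± 0.07), the acetyltransferase ESCO1 (-0.21 ± 0.06) and the regulator PDS5A (-0.10 ± 0.03) were lower.

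Of 17 DNA methylation and silencing genes, 6 were higher, 4 lower and 7 not called, with a median of 0.0, where 22.3% of all tested genes were higher and 21.8% lower. The maintenance methyltransferase DNMT1 fell by 0.33 ± 0.03 on the log2 scale (edgeR adjusted p 1.02e-16) and the de novo enzyme DNMT3B by 0.40 ± 0.05 (1.22e-11), while DNMT3A rose by 0.21 ± 0.08 (0.0336). The DNMT3A call was lost without the filter on low counts (edgeR adjusted p 0.0559), with DESeq2, and without each of parental replicates 1 and 2 and HCT116oxR replicates 1 and 3. SMCHD1, a repressor of clustered protocadherins in mice, fell by 0.25 ± 0.03 (1.75e-10), and WIZ fell by 0.37 ± 0.08 (1.54e-04). The histone methyltransferase gene EHMT2 (0.60 ± 0.08) and the demethylation enzymes TET1 (0.50 ± 0.15) and TET2 (0.33 ± 0.06) were higher. Whether any of these levels has a part in those of the protocadherins was not tested.

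Of 25 genes for proteins that clustered protocadherins bind, signal through or are cut by, 24 were tested, 8 were higher and 4 were lower. The shares over all tested genes were 22.3% higher and 21.8% lower. NCKAP1, a subunit of the WAVE complex that some protocadherin tails recruit, fell by 1.97 ± 0.03 on the log2 scale (edgeR adjusted p 5.94e-89). The focal adhesion kinase gene PTK2, a target of inhibition by the gamma and alpha tails, rose by 0.65 ± 0.05 (1.18e-23), and its relative PTK2B fell by 0.48 ± 0.13 (0.0013). The kinase FYN rose by 0.47 ± 0.12 (9e-04). Of the gamma-secretase subunits, APH1B rose by 0.88 ± 0.18 (1.02e-05) and PSENEN fell by 0.38 ± 0.12 (0.00711). Whether the changes of NCKAP1, PTK2 and RAD21 were shared by their neighbours on the chromosome was not examined here.

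Markers of other cell types were counted in the same libraries, where 22.3% of all tested genes were higher and 21.8% lower in HCT116oxR. Of 12 neuronal markers 3 were tested, MAP2 was higher (0.35 ± 0.12, edgeR adjusted p 0.0112) and none was lower. Their summed level was 17.5 to 18.8 CPM in parental and 22.1 to 25.1 CPM in HCT116oxR libraries, and GAP43, NEFL, NEFM and ELAVL4 had no count. The 9 fibroblast markers summed to 55.7 to 69.1 and 46.9 to 52.2 CPM, of which COL1A1 held 53.5 ± 3.05 and 43.3 ± 2.02 CPM (SD, n = 3 per line) and was lower (-0.30 ± 0.07). The 9 endothelial and blood markers summed to 1.81 to 2.43 and 3.01 to 3.98 CPM, with PTPRC, CD3E and HBB at 0. None of these 9 was called with the filter, and KDR (8 and 34 counts) was called higher without it (edgeR adjusted p 0.0421). The 12 epithelial markers summed to 3250 to 3360 and 3950 to 4030 CPM, with 6 higher (CLDN3, CLDN4 and KRT18 the most) and KRT19 lower. The part of these markers in the protocadherin differences was not tested.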

How the data were processed

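The authors deposited raw counts per gene, 1 table for total RNA, aligned with HISAT2 to GRCh38 per the submitters' processing notes. Not given in the sources used here are the counting tool, the annotation release and whether strand or ambiguous reads were considered. The libraries of small RNA were not used. Names, positions and promoters came from RefSeq tables of GRCh38.p14, to which 51509 of 54261 genes were matched. Counts were fitted over all genes in R 4.3.3 with edgeR 4.0.16 (filterByExpr with minimum count 10 and minimum total 15, TMM factors, robust quasi-likelihood F test, 2-sided, Benjamini-Hochberg adjustment over 17511 genes, threshold 0.05). SE is the size of the log2 fold change divided by the root of F. CPM are TMM-scaled. Count ratios carry exact 95% binomial intervals, which cover counting error only. Libraries of a line differed beyond sampling noise (chi-square per degree of freedom 2.25 to 3.13). The fit was tested on simulated data. Every member is accounted for, and of each other list up to 3 genes with the highest and 3 with the lowest fold change past the threshold were named, with CTCF, DNMT1, DNMT3A, DNMT3B and SMCHD1 in any case. A few further genes were named after their values were seen. Members and lists were chosen with earlier results of these data known. Alternatives were DESeq2 1.42.0, other scalings, no filter, a replicate block and leaving out each library.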

Additional observations from a re-analysis of the deposited data

How the results depend on the processing

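PCDHAC1 (log2 fold change 1.70 to 2.11 when 1 library was left out), PCDHB13 (1.54 to 2.42) and PCDHACT (0.94 to 1.19) were called higher under all 11 alternatives. Members called higher were 4, and 2 to 4 when 1 library was left out, the 2 being PCDHAC1 and PCDHB13 without HCT116oxR replicate 3. Alpha C-type genes called higher were 2, and 1 to 2 with a library left out. Beta genes called higher were 2, but 1 with DESeq2, 1 without the filter on low counts and 1 to 2 with a library left out. Members called lower, all gamma A genes, were 1, but 2 without the filter (PCDHGA6 and PCDHGA7) and 1 to 2 with a library left out. The genes were not the same in each of those fits. PCDHGA9 was not called without parental replicate 1, HCT116oxR replicate 1 or HCT116oxR replicate 3. DESeq2 also called 1 member lower, and that was PCDHGA6.

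Same-numbered libraries of the lines did not deviate together (correlation of deviations -0.027 to -0.007), so they share only a number. With the replicate block 0 members, and so 0 gamma A genes, were called lower, PCDHGA9 having an edgeR adjusted p of 0.0527. PCDHGB2 (-0.41 to 0.30 with a library left out) turned to 0.30, 0.01 and 0.01 without parental replicate 2, HCT116oxR replicate 2 and HCT116oxR replicate 3, and PCDHGB7 (-0.26 to 0.08) to 0.08 and 0.01 without parental replicates 1 and 2. The cause of these changes was not tested. PCDHGB2 had too few counts for a test without HCT116oxR replicate 1. Depth limits the rest: 43 of 53 members had too few counts for a test.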
